A study of Mus musculus with 24 samples.

Results

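The death receptors are cell-surface receptors of the tumour necrosis factor (TNF) receptor superfamily, and 6 genes of their route to caspase 8 were followed in irradiated mouse intestinal organoids. The genes were taken by symbol from the array's own annotation, 6 of its 18138 symbols, and carry 18 probes, all of which passed the filter on low signals. Fas, on chromosome 19, has 3 probes, Eda2r, on chromosome X, has 1, and Tnfrsf10b, on chromosome 14, has 5. Tnfrsf1a, on chromosome 6, has 3 probes, Fadd, on chromosome 7, has 4, and Casp8, on chromosome 1, has 2. Small intestinal organoids are cultures grown from the crypts of the gut, here of C57BL/6 mice, kept in ENR medium with EGF, Noggin and R-spondin. Irradiated organoids had received 6 Gy of gamma rays 3 days after they were reseeded, and control organoids had not. RNA was taken at time points of 24, 48 and 96 h, with 4 irradiated and 4 control samples at each, so that each time has controls of its own, 24 arrays in 6 groups. All groups share the mouse strain and the medium.

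A death receptor carries a death domain in its cytoplasmic tail. When its ligand clusters it, the adaptor Fadd binds through its own death domain and brings in procaspase 8, which activates itself and then cleaves executioner caspases or, through Bid, opens the mitochondrial arm. Fas is the receptor of Fas ligand, Tnfrsf10b is the only mouse receptor of the ligand TRAIL that carries a death domain, and Tnfrsf1a is the broadly expressed TNF receptor, which can signal to NF-kB as well as to cell death. Eda2r is the receptor of the A2 form of ectodysplasin, has no classical death domain and signals through TRAF adaptors. Fas, Tnfrsf10b and Eda2r are known transcriptional targets of p53, the transcription factor that DNA damage activates. In the intestine, apoptosis of crypt cells is an early response to radiation.

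Of the members, Fas and Eda2r had the largest differences after irradiation on their brightest probes, as processed here. Casp8 was not called at any time. The promoters of Fas, Eda2r and Casp8 are shown to set the start regions of called and uncalled genes beside each other. They are RefSeq sequences of build GRCm38.p6, 300 bases from 250 before to 50 after the annotated start, 5′ to 3′ on the gene's strand, with matches to the motifs searched in capitals.
Fas promoter, chr19:34290409-34290708, plus strand: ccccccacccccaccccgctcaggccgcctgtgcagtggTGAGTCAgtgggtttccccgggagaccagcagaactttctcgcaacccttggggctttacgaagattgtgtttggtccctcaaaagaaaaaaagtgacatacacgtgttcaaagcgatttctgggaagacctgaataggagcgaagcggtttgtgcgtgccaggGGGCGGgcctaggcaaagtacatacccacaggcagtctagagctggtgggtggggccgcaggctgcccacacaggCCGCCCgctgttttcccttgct
Eda2r promoter, chrX:97377160-97377459, minus strand: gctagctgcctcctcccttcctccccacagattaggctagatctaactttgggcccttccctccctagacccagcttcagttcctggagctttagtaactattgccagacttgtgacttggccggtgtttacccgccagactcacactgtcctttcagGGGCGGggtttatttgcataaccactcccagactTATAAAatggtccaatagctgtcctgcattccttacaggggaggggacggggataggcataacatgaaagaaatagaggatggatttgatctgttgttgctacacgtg
Casp8 promoter, chr1:58802252-58802551, plus strand: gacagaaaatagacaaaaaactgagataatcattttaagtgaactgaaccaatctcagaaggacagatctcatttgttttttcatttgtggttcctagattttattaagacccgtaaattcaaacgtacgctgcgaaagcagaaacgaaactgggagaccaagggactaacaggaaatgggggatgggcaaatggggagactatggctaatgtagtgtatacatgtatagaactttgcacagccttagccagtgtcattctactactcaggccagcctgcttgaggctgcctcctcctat
A promoter was found for 5 of the 6 genes, and Tnfrsf10b is named only. The motifs, searched on both strands, were a p53 half-site, an NF-kB site, the AP-1 site TGANTCA, the TATA motif TATAAA and the GC box GGGCGG. The Fas window holds the AP-1 motif at position -211 from the start and GC boxes at -47 and 28. The Eda2r window holds a GC box at -92 and the TATA motif at -58. Fadd holds GC boxes at -79 and -14, and the windows of Tnfrsf1a and Casp8 hold no match. No p53 half-site and no NF-kB site was matched in any of the 5 windows. Over the 32851 promoters of the same length in the table, 8.36% hold the p53 half-site, 4.51% the NF-kB site, 7.81% the AP-1 motif, 13.6% the TATA motif and 35.7% the GC box. A match of letters is a description of the window and says nothing of binding.

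RNA was read on Illumina BeadChips, on which each probe is a bead type with a mean signal. Values are log2 signals after background correction and quantile normalization, and a gene is read from its brightest probe with the others beside it. Between 9738 and 14751 probes were detected per array. The fewest, 9738 to 12941, were in irradiated organoids at 24 h, against 12535 to 13551 in control organoids at 24 h, and irradiated replicate 3 had the 9738. Arrays of a group correlated at 0.948 to 0.993. Per the labels' array descriptions, the 8 arrays of a time shared 1 chip, with irradiated samples in the last 4 positions and control samples in the first 4, so position and irradiation cannot be told apart, nor can time and chip. The labels do not say whether samples were separate cultures, so p-values here rest on the variation from sample to sample, which could be technical alone. A gene was called where its limma p, adjusted over all 15056 detected probes, was under 0.05. All 6 epithelial markers with a probe, such as Cdh1 and Vil1, were detected on every array (Epcam has no probe), and none of the 7 mesenchymal markers was detected on any array. Of 9 immune markers with a probe, 7 including Ptprc were never detected, Lck was detected on fewer than 4 arrays, and 1 passed the filter. That marker differed by 0.33, 0.05 and 0.27 at the 3 times and was not called. Of 5 endothelial markers, Cdh5, Kdr and Emcn were never detected, while Pecam1 was detected on 11 arrays and Tek on 5, and Tek was called higher in irradiated organoids at 24 h (0.94, limma adjusted p 0.0248).

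At 24 h, 3 of the 6 genes were called higher in irradiated than in control organoids, Eda2r, Fas and Tnfrsf10b, and 0 were called lower. Over all 10798 genes read the same way, 10.9% were called higher and 12% lower. At 48 h the same 3 genes were called higher and 0 lower, against 6.83% and 5.77% of all genes. At 96 h Eda2r was the only gene called higher and 0 were lower, against 1.53% and 3.12% of all genes. The median log2 difference of the 6 genes was 0.49 at 24 h, 0.55 at 48 h and 0.03 at 96 h, beside -0.04, -0.04 and 0 over all genes. By probe, 6 of 18 were called higher and 1 lower at 24 h, where 9.58% of all detected probes were higher and 12.6% lower. At 48 h, 8 probes were called higher and 0 lower, with 6.26% of all probes higher, and at 96 h 2 were higher and 0 lower, with 1.43% higher. All 4 irradiated arrays lay above all 4 control arrays for 8 of the 18 probes at 24 h, 9 at 48 h and 1 at 96 h, as for 11.2%, 9.05% and 2.85% of all detected probes. They lay below for 2, 1 and 0 probes, as for 15.9%, 10.1% and 4.14% of all.

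**Figure D1:**
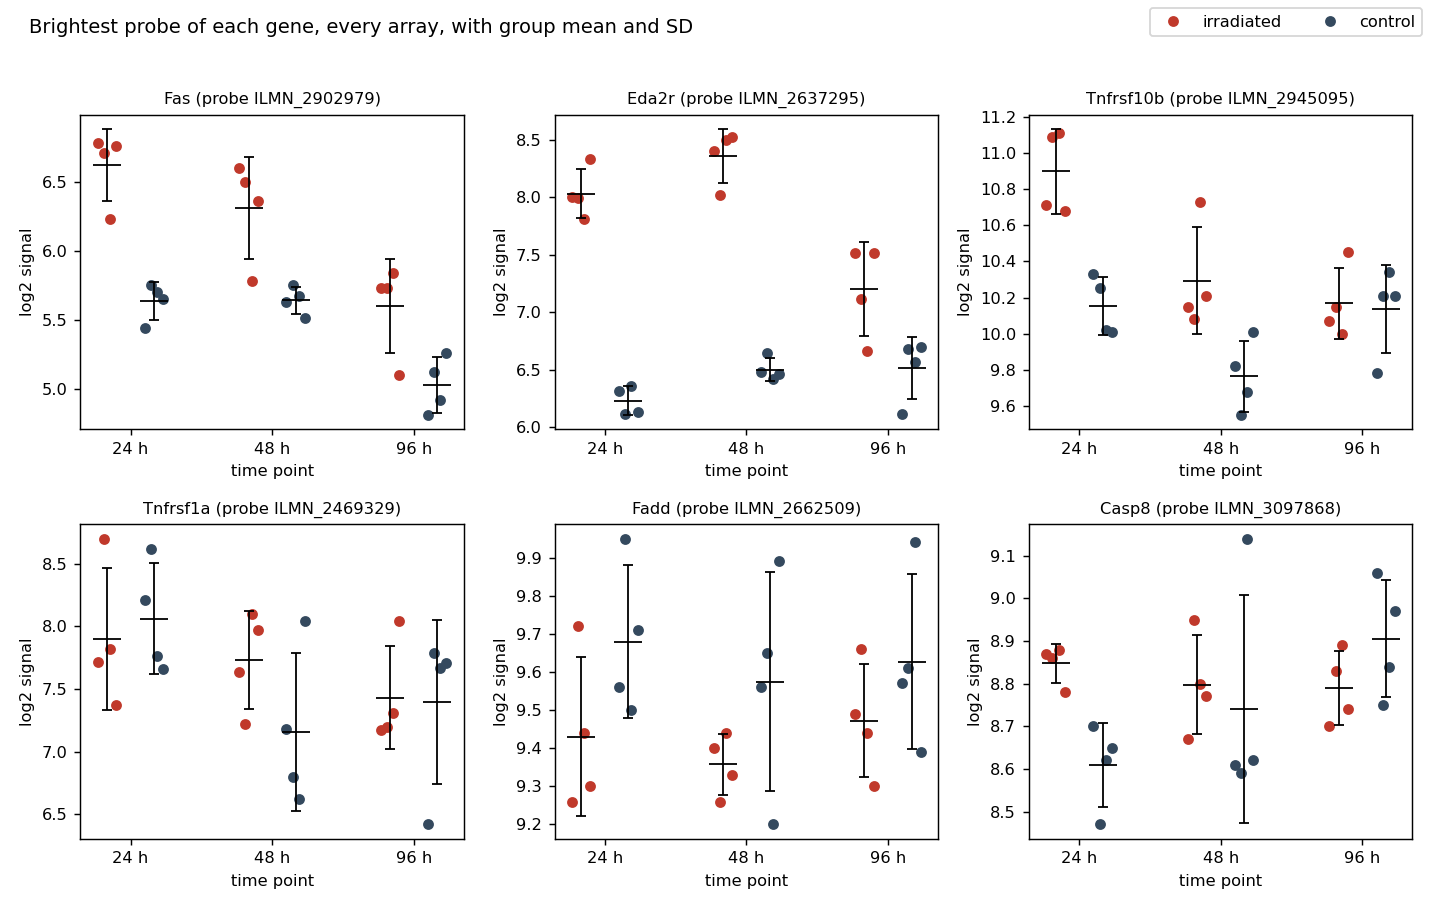
Log2 signal (vertical axis) of the brightest probe of each of the 6 genes on all 24 arrays by time point (horizontal axis), irradiated arrays (red) left of control arrays (blue), with bars for the group mean and SD of 4 arrays. The groups separate for Eda2r, Fas and Tnfrsf10b at 24 and 48 h and overlap at 96 h, while they overlap for Tnfrsf1a and Fadd at all 3 times.

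Eda2r showed the largest difference of the 18 probes. At 24 h its single probe, ILMN_2637295, read 8.0, 7.99, 7.81 and 8.33 in irradiated organoids, against 6.32, 6.12, 6.36 and 6.13 in control organoids. The irradiated arrays lay well above the control arrays, with no overlap. The difference was 1.80 ± 0.17 on the log2 scale (SE), 3.48-fold, with a limma adjusted p of 7.28e-08. At 48 h the irradiated arrays read 8.40, 8.02, 8.50 and 8.52, against 6.48, 6.65, 6.42 and 6.46 in the controls, again without overlap. The difference at 48 h was 1.86 ± 0.17, 3.62-fold (limma adjusted p 1.13e-07). Without background correction the Eda2r differences were smaller, 1.18 at 24 h and 1.29 at 48 h, and both were called.

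By 96 h the 2 groups touched. Eda2r read 7.52, 7.12, 6.66 and 7.52 in irradiated organoids, against 6.12, 6.68, 6.57 and 6.70 in control organoids, and irradiated replicate 3 fell below the upper 2 control arrays. The difference was 0.69 ± 0.17, 1.61-fold (limma adjusted p 0.0212). This call was lost without control replicate 1 (0.56, adjusted p 0.0786), irradiated replicate 1 (0.58, 0.0826) or irradiated replicate 4 (0.58, 0.0948) at 96 h. It was also lost under median scaling (0.47, adjusted p 0.2) and when only the 96 h arrays were fitted (adjusted p 0.256).

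The decline of the Eda2r difference was tested directly. The irradiation effect at 96 h was lower than at 48 h by 1.17 on the log2 scale (SE 0.24, limma adjusted p 0.00894) and lower than at 24 h by 1.11 (SE 0.24, limma adjusted p 0.00506). The 96 against 24 h call was lost under median scaling (-0.78, adjusted p 0.11) and without the 5 arrays with the fewest detected probes (-0.90, 0.0521). Of the 6 genes, Eda2r was the only one called lower at 96 h than at 48 h, beside 2.4% of all genes. Between 24 and 48 h, 0 of the 6 genes were called, beside 0.889% of all genes in either direction, and the unadjusted p for Eda2r was 0.815. By level, the order was irradiated 48 h (8.36), irradiated 24 h (8.03) and irradiated 96 h (7.21), then control 96 h (6.52), control 48 h (6.50) and control 24 h (6.23). Neighbours in that order overlapped except irradiated 24 h with irradiated 96 h, and control 48 h with control 24 h, and the levels of different times lie on different chips.

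Fas, the receptor of Fas ligand, was higher in irradiated organoids at 24 and 48 h. Its brightest probe, ILMN_2902979, read 6.78, 6.71, 6.23 and 6.76 in irradiated organoids at 24 h, against 5.44, 5.75, 5.70 and 5.65 in control organoids. Irradiated replicate 3 was the lowest of its group and did not detect the probe, and the groups did not overlap. The difference was 0.98 ± 0.18 (SE), 1.98-fold (limma adjusted p 0.000287). At 48 h it read 6.60, 6.50, 5.78 and 6.36 in irradiated organoids, against 5.63, 5.75, 5.67 and 5.51 in the controls, with irradiated replicate 3 just above the highest control. The difference at 48 h was 0.67 ± 0.18 (limma adjusted p 0.0135), and it was lost without irradiated replicate 1 (0.57, adjusted p 0.0552). Without background correction the Fas differences were smaller, 0.49 at 24 h and 0.32 at 48 h, and both were called. Those of the brightest Tnfrsf10b probe were then larger than those of Fas, 0.71 and 0.49.

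By level, the order for Fas was irradiated 24 h (6.62), irradiated 48 h (6.31), control 48 h (5.64), control 24 h (5.64), irradiated 96 h (5.60) and control 96 h (5.03). Of these neighbours only irradiated 48 h and control 48 h did not overlap.

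At 96 h the signal of Fas was close to the limit of detection. The same probe read 5.73, 5.73, 5.84 and 5.10 in irradiated organoids, of which 3 arrays detected it, against 4.81, 5.12, 4.92 and 5.26 in control organoids, none of which did. The groups overlapped by irradiated replicate 4 alone. Because no control array detected the probe, no fold is given. The measured means were 5.60 in irradiated organoids and 5.03 in control organoids, with a limma adjusted p of 0.0699. Without irradiated replicate 4 the adjusted p was 0.0137. Without irradiated replicate 3 at 48 h, which changes only the shared spread, the adjusted p was 0.0361.

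The other Fas probes were dimmer and partly disagreed. ILMN_2454420 was higher by 0.69 ± 0.19 at 24 h (limma adjusted p 0.0121) and 0.78 ± 0.19 at 48 h (0.00858), and its 96 h difference was -0.04. At 24 h it was detected on 3 irradiated arrays but only 1 control array. ILMN_2479290 differed by 0.37 ± 0.26 at 24 h (adjusted p 0.333), was higher by 0.87 ± 0.26 at 48 h (0.0322) and differed by -0.07 at 96 h. The 48 h call of that probe was lost on leaving out any of 6 single arrays, with adjusted p of 0.0568 to 0.106. Irradiated replicate 3 at 24 h read 4.95 for it against 5.95 to 6.12 on the other 3 irradiated arrays. On that array the lowest detected signal of any probe was 6.26, the highest of all 24 arrays. Within groups the 2 dimmer probes followed the number of detected probes per array (Pearson r = 0.75 and 0.73 over 24 arrays, which share the array's background), as against 0.39 for the brightest. The part of detection in the Fas difference was not tested beyond 2 fits. Adding each array's detected-probe count as a term gave ILMN_2479290 a 24 h difference of 0.84 (limma adjusted p 0.00723), and leaving out the 5 arrays with the lowest such counts gave 0.69 (0.0207).

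**Figure D2:**
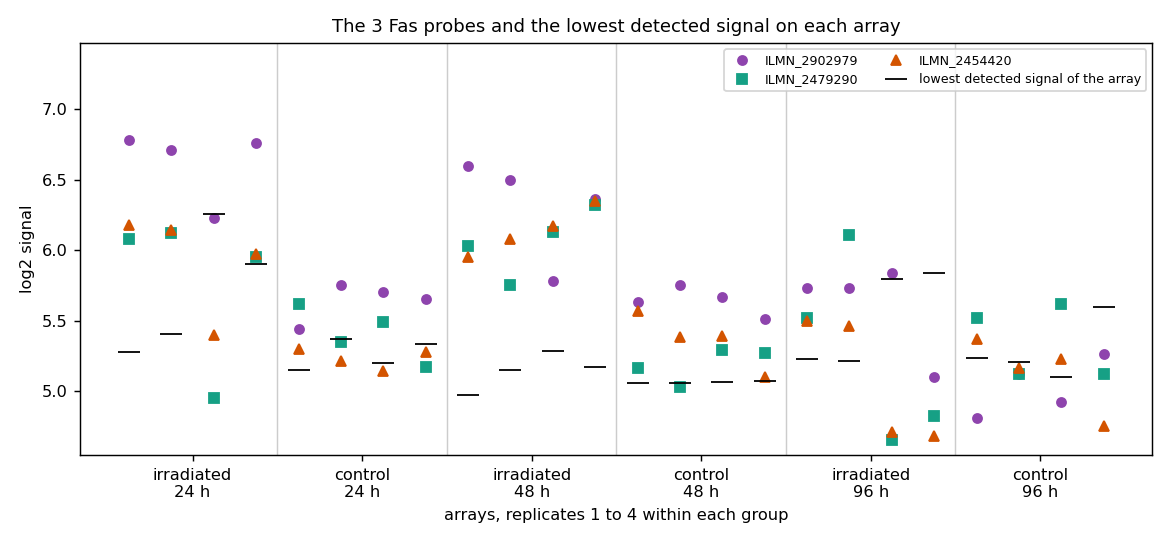
Log2 signal (vertical axis) of the 3 Fas probes on each of the 24 arrays (horizontal axis, by group), with a black dash for the lowest signal that was detected on that array. Replicate 3 of the irradiated organoids at 24 h has the highest dash, 6.26, and all 3 Fas probes lie below it.

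Tnfrsf10b, the TRAIL receptor, has the most probes. Its brightest, ILMN_2945095, read 10.71, 11.09, 11.11 and 10.68 in irradiated organoids at 24 h, against 10.33, 10.25, 10.02 and 10.01 in control organoids. The groups did not overlap, and the difference was 0.74 ± 0.16 (SE), 1.68-fold (limma adjusted p 0.00165). At 48 h it read 10.15, 10.08, 10.73 and 10.21 in irradiated organoids, against 9.82, 9.55, 9.68 and 10.01 in the controls. The irradiated arrays again lay above all controls, with replicate 3 well above the rest, and the difference was 0.52 ± 0.16 (limma adjusted p 0.0346).

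The 48 h call was lost without any of 5 single arrays. These were irradiated replicate 3 (0.38, adjusted p 0.16) and replicate 4 (0.55, 0.0577) and control replicates 1 (0.54, 0.0604), 2 (0.45, 0.114) and 3 (0.50, 0.0907). Under median scaling the Tnfrsf10b difference was 0.35 at 24 h (adjusted p 0.123) and 0.26 at 48 h (0.379). The median difference of all detected probes was then -0.44 at 24 h and -0.18 at 48 h. At 96 h this probe read 10.07, 10.15, 10.00 and 10.45 in irradiated organoids, against 9.78, 10.21, 10.34 and 10.21 in the controls, which overlapped, with a difference of 0.03 ± 0.16 (limma adjusted p 0.949).

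The 5 probes gave the same direction at 24 and 48 h and differed at 96 h. At 24 h the differences ran from 0.47 to 0.93, and 3 of the 5 were called. At 48 h they ran from 0.52 to 0.70, and 4 of 5 were called, of which ILMN_2455181 was lost on leaving out any of 6 single arrays (adjusted p 0.0522 to 0.0756). At 96 h ILMN_2460875 alone was called, and it read 6.98, 6.95, 7.0 and 6.74 in irradiated organoids, against 6.01, 6.68, 6.12 and 6.16 in control organoids. Those groups did not overlap, and the difference was 0.67 ± 0.15 (limma adjusted p 0.0071), beside 0.70 and 0.65 for the same probe at 24 and 48 h. The 96 h call of that probe was lost under median scaling (0.47, adjusted p 0.185), with only the 96 h arrays (0.116) and without the 5 arrays with the fewest detected probes (0.0807). The other 4 probes differed by 0.02 to 0.46 at 96 h. Within groups the 5 probes correlated at -0.44 to 0.72 over 24 arrays, with a median of -0.07 over the 10 pairs. Which transcripts each probe reads was not analysed here.

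The effect on Tnfrsf10b was lower at 96 h than at 24 h by 0.71 (SE 0.22, limma adjusted p 0.0462) for the brightest probe and by 0.75 (SE 0.22, 0.0297) for ILMN_1230700. With Eda2r that made 2 of 6 genes, beside 6.57% of all genes. For the brightest probe the call was lost with the replicate block (-0.71, adjusted p 0.055) and under 5 other of the 13 alternatives, and on leaving out any of 16 of the 24 arrays, with adjusted p of 0.0509 to 0.0938. For ILMN_1230700 it was lost under 3 of 12 alternatives and on leaving out any of 7 arrays, with 0.0522 to 0.067. The same difference was -0.03 for ILMN_2460875 (adjusted p 0.956) and -0.01 for ILMN_2455181 (0.994). In the order of levels of the brightest probe, irradiated 24 h (10.9) came first and control 48 h (9.77) last, and each group overlapped the next.

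**Figure D3:**
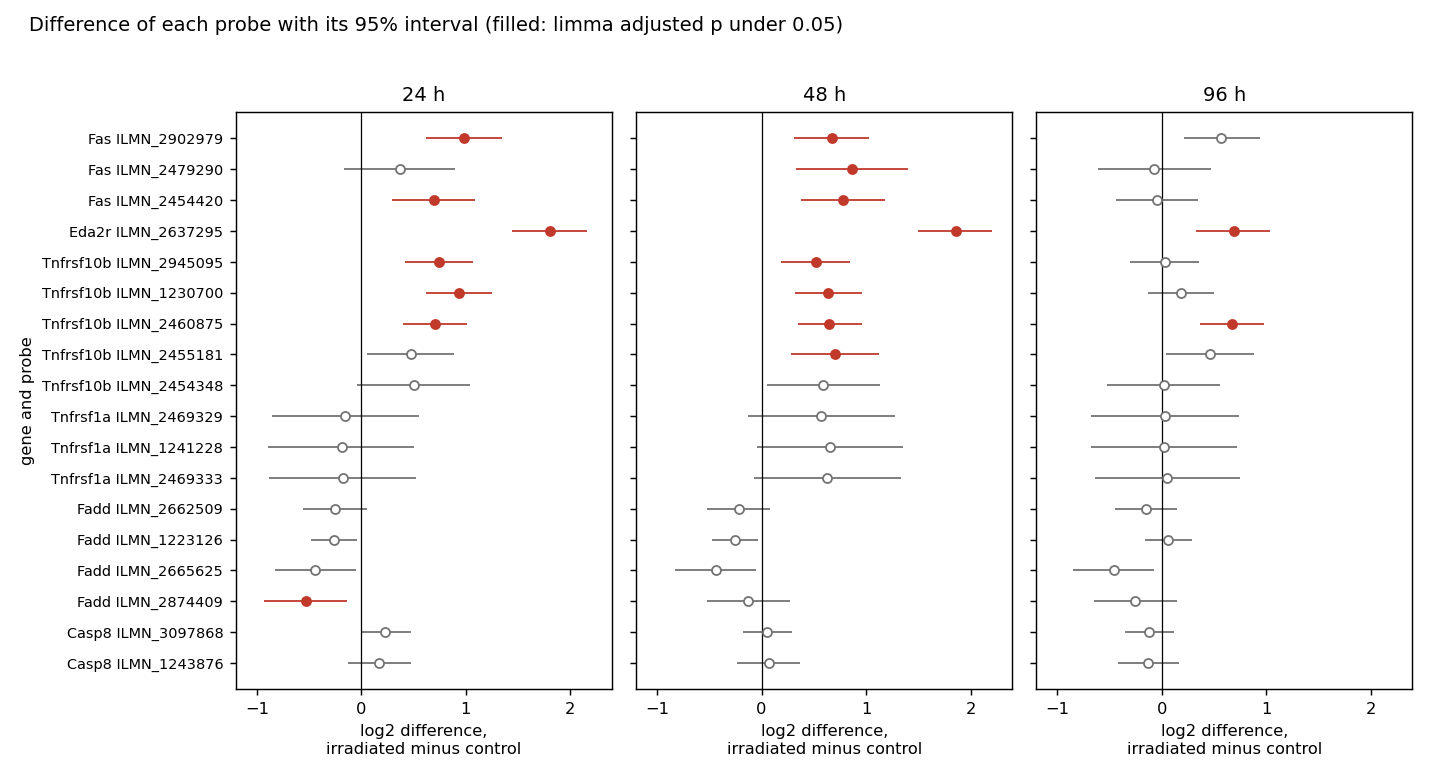
Log2 difference between irradiated and control organoids (horizontal axis) for each of the 18 probes (vertical axis) at 24, 48 and 96 h, with the 95% interval of the limma fit. Filled points are the 7, 8 and 2 probes called, and the Tnfrsf1a probes have the widest intervals.

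Tnfrsf1a, the TNF receptor with a death domain, was not called at any time on any of its 3 probes. Its brightest probe, ILMN_2469329, read 7.72, 8.70, 7.82 and 7.37 in irradiated organoids at 24 h, against 8.21, 8.62, 7.76 and 7.66 in control organoids. It read 7.64, 7.22, 8.10 and 7.97 at 48 h in irradiated organoids, against 7.18, 6.80, 6.62 and 8.04 in the controls. The groups overlapped at all 3 times. The differences were -0.16 at 24 h (95% interval -0.86 to 0.55), 0.57 at 48 h (-0.13 to 1.28) and 0.03 at 96 h (-0.68 to 0.74), with limma adjusted p of 0.781, 0.324 and 0.977. The intervals at 48 and 96 h include differences as large as those of Fas at those times, and the 24 h interval ends below the 0.98 of Fas. Under median scaling the 24 h difference was -0.76 (adjusted p 0.036), or -0.32 relative to the median of all detected probes. The 24 h sign was positive without the 5 arrays with the fewest detected probes (0.15) and with the histone mean as a term (0.13), neither called. At 48 h, ILMN_1241228 was called higher without control replicate 4 (0.98, limma adjusted p 0.0493). The other probes of Tnfrsf1a were not called at 48 h on leaving out any single array.

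The wide intervals came from large spread within groups that all 3 probes shared. The SD within groups was 0.52 to 0.53, larger than for 97.9% to 98.1% of detected probes, whose median was 0.25. The 3 probes correlated within groups at 0.97 to 0.98 over 24 arrays. At 96 h irradiated replicate 4 read 8.04 against 7.17 to 7.31 on the other irradiated arrays, and control replicate 1 read 6.42 against 7.67 to 7.79. The mean of 49 histone genes moved with Tnfrsf1a from array to array (r within groups 0.80 to 0.85) and with the brightest Tnfrsf10b probe (0.73), but less with Eda2r (0.29) and in the opposite sense with the brightest Fas probe (-0.21). The correlation was -0.49 and -0.68 for the Casp8 probes and -0.47 to 0.31 for the other 4 Tnfrsf10b probes. For the 4 Fadd probes it was 0.06 to 0.62. Tnfrsf1a and the brightest Tnfrsf10b probe correlated with each other within groups at 0.82. These arrays share labelling and normalization, and what the histone genes mark was not tested.

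**Figure D4:**
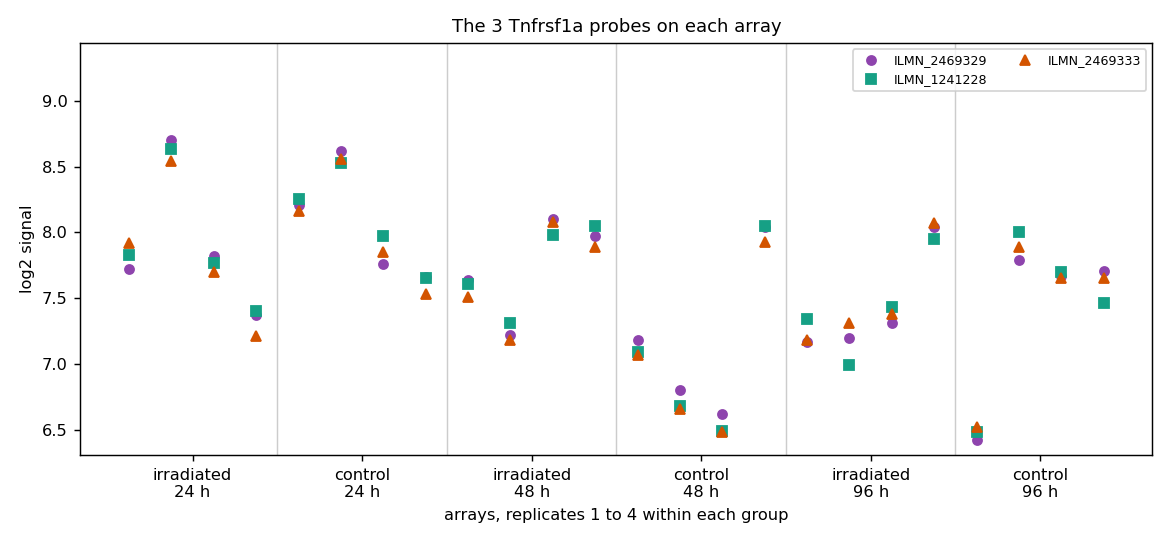
Log2 signal (vertical axis) of the 3 Tnfrsf1a probes on each of the 24 arrays (horizontal axis, by group). The 3 probes coincide on each array, while arrays of 1 group differ by over 1 log2 unit in several groups, such as control replicate 1 at 96 h, at 6.42 on the brightest probe.

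Fadd, the adaptor that links the receptors to caspase 8, gave small differences. Its brightest probe, ILMN_2662509, read 9.26, 9.72, 9.44 and 9.30 in irradiated organoids at 24 h, against 9.56, 9.95, 9.50 and 9.71 in control organoids, which overlapped. The differences were -0.25 at 24 h (95% interval -0.56 to 0.05), -0.22 at 48 h (-0.52 to 0.08) and -0.15 at 96 h (-0.45 to 0.15), none called. One of the other probes, ILMN_2874409, read 6.51, 6.77, 6.13 and 6.60 in irradiated organoids at 24 h, against 7.12, 6.96, 7.04 and 7.02 in the controls, a difference of -0.53 ± 0.19 (limma adjusted p 0.0483). That call was lost on leaving out any of 14 of the 24 arrays, with adjusted p of 0.0512 to 0.174. The remaining 2 Fadd probes were not called at any time, and ILMN_2665625 differed by -0.44, -0.44 and -0.46 at the 3 times. Under median scaling the brightest probe was called lower at 24 h (-0.79, adjusted p 0.00281), or -0.35 relative to the median of all detected probes.

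Casp8, the initiator caspase, was not called on either probe at any time. Its brightest probe, ILMN_3097868, read 8.87, 8.86, 8.88 and 8.78 in irradiated organoids at 24 h, against 8.70, 8.47, 8.62 and 8.65 in control organoids. These did not overlap, but the difference was small, 0.23 ± 0.11 (95% interval 0 to 0.47, limma adjusted p 0.147). Its sign turned under median scaling (-0.35, or 0.09 relative to the median of all detected probes). At 48 h the difference was 0.05 (-0.18 to 0.29) and at 96 h -0.12 (-0.35 to 0.12). The second probe, ILMN_1243876, differed by 0.17, 0.07 and -0.13 at the 3 times. The intervals of the brightest probe run no further than 0.47 above and -0.35 below 0. For Tnfrsf1a, Fadd and Casp8, the mean levels of the 6 groups spanned 7.16 to 8.06, 9.36 to 9.68 and 8.61 to 8.91, and each group overlapped the next in order.

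Over all 24 arrays, the genes whose brightest probe was most like each member's are given as a description, since the arrays share groups, chips and normalization. For Eda2r they were Krt20, a keratin of differentiated epithelium (Pearson r = 0.94), Crip2 (0.93) and Ccng1, a p53 target (0.92). For Fas they were Aldh3b1 (0.92), the actin-severing protein gene Scin (0.91) and the glucose transporter gene Slc2a2 (0.91). For Tnfrsf10b they were Fcer2a (0.93), Kl (0.92) and Gp9 (0.9). For Tnfrsf1a they were Gucy2c, the guanylate cyclase of the gut epithelium (0.91), Trappc3 (0.9) and Acbd5 (0.89). For Fadd and Casp8 the highest values over all arrays were lower, 0.77 (Traf7) and 0.71 (Il17re). Within groups the highest were 0.84 for Fadd (Mt1) and 0.77 for Casp8 (Picalm). They were 0.81 for Fas (Ccdc132), 0.79 for Eda2r (Dcps), 0.89 for Tnfrsf10b (Fcer2a) and 0.94 for Tnfrsf1a (Ireb2). Among the members, Fas and Eda2r correlated at 0.72 over all arrays but at -0.11 within groups.

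Some markers of cell types also differed between irradiated and control organoids. The summed linear signal of 6 enterocyte genes, such as Fabp1, was 19770 to 22900 in irradiated organoids at 24 h, against 12850 to 14770 in control organoids. At 48 h it was 17120 to 17990 against 9944 to 10900 in the controls, and at 96 h 8980 to 10700 against 8825 to 10220. The number of enterocyte genes called higher was 6 at 24 h, 5 at 48 h and 0 at 96 h. For this and the other marker lists, the shares of all genes called higher were 10.9%, 6.83% and 1.53% at these times. Among 5 enteroendocrine genes, such as Cck, 3 were called higher at 24 h, 3 at 48 h and 0 at 96 h, with medians of 0.96, 1.02 and 0.12. Of 4 Paneth cell genes, 3, 2 and 0 were called higher at the 3 times, and of 4 tested goblet cell genes, 3, 2 and 1. Crypt base stem cell genes went both ways at 24 h, with Lgr5 at -1.48, Olfm4 at -1.27 and Ascl2 at 1.95, all called. Of these 3 genes, 2 were called lower and 0 higher at 48 h, and 1 lower and 0 higher at 96 h. The shares of all genes called lower were 12%, 5.77% and 3.12% at the 3 times. The part of these cell types in the differences of Fas, Eda2r and Tnfrsf10b was not tested. In these bulk samples, fewer cells of a type and less RNA per cell cannot be told apart.

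Of the ligands, only TRAIL could be followed. Its gene, Tnfsf10, was detected on 8 of 24 arrays and was lower in irradiated organoids at 48 h (limma adjusted p 0.0028). Its measured mean then was 5.02 in irradiated organoids, with 1 array detected, against 5.78 in control organoids, with 4 detected. At 24 and 96 h it was detected on 0 irradiated arrays, and no fold is given for these low signals. Its measured means at 96 h were 4.83 in irradiated organoids and 5.42 in control organoids (limma adjusted p 0.0364), a call lost on leaving out any of 7 of the 8 arrays of that time. Fasl, Tnf, Eda, Lta and Ltb were detected on at most 1 array and were not tested.

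Of 15 other TNF receptor genes, 9 were tested, and 3 were called higher and 1 lower at 24 h, 3 and 1 at 48 h, and 2 and 0 at 96 h. Over all genes, 10.9%, 6.83% and 1.53% were called higher and 12%, 5.77% and 3.12% lower at these times. Tnfrsf12a, the receptor of the cytokine TWEAK, was higher by 0.96 ± 0.10 at 24 h, 0.98 ± 0.10 at 48 h and 0.38 ± 0.10 at 96 h (limma adjusted p 2.65e-07, 3.88e-07 and 0.0332). Tnfrsf21, death receptor 6, was higher by 0.60 ± 0.12 at 24 h and 1.10 ± 0.12 at 48 h (0.000725 and 5.94e-07). Under median scaling the 24 h calls were lost, with Tnfrsf12a at 0.38 and Tnfrsf21 at 0.02, and the 96 h call of Tnfrsf12a was lost on leaving out any of 5 single arrays. Tnfrsf11a, the RANK receptor, was lower at 24 h (-0.73 ± 0.18, 0.00494), a call lost under cyclic loess (-0.29, 0.264) and without the 5 arrays with the fewest detected probes (-0.48, 0.149). Tnfrsf19 was lower at 48 h (-0.71 ± 0.14, 0.00132). Cd40 was higher by 0.44 at 96 h (0.043) on its brightest probe, but its other 2 detected probes differed by -0.37 and 0 and were not called, and its call was lost on leaving out any of 12 single arrays. Tnfrsf1b, Tnfrsf25, Edar, Tnfrsf23, Tnfrsf26 and Tnfrsf11b were not detected.

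Of 20 adaptors and regulators, 15 were tested, and 2 were called lower at 24 h and 0 in either direction later, a share at 24 h near the 12% of all genes. These were Xiap, an inhibitor of caspases, listed under its older name (-0.71 ± 0.24, limma adjusted p 0.0374), and Casp8ap2, which binds caspase 8 (-0.55 ± 0.19, 0.0374). The other 2 detected Xiap probes differed by -0.34 and 0.02 at 24 h and were not called. The calls were lost on leaving out any of 5 single arrays for Xiap and any of 6 for Casp8ap2. They were also lost under 5 of 13 processing alternatives for Xiap (differences to -0.1) and 7 of 13 for Casp8ap2 (to -0.2). Cflar, which encodes the inhibitor c-FLIP, Traf1, Traf2 and Edaradd were not detected, and Tradd has no probe. All 10 downstream genes were tested, and 2 were called higher at 24 h and 0 later, beside 10.9% of all genes higher at 24 h. Cycs, cytochrome c, was higher by 0.43 ± 0.12 (0.0106) and the executioner caspase gene Casp6 by 0.42 ± 0.12 (0.0177). Under median scaling their signs turned to -0.1 and -0.18, both above the -0.44 median of all detected probes there. The second Casp6 probe, ILMN_2923865, was also called higher at 24 h (0.52, adjusted p 0.0017), and the second Cycs probe was not (0.53, 0.0586). The call of the brightest Casp6 probe was lost without irradiated replicate 3 or control replicate 3 at 24 h. On their brightest probes, the Cycs and Casp6 calls were each lost under 3 of 13 alternatives. For both, these included the fit without the 5 arrays with the fewest detected probes. Casp9, Bid and Apaf1 were not called at any time.

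Of 11 TNF and NF-kB target genes, 8 were tested. Nfkb2 was called higher at 24 h (0.77 ± 0.21, limma adjusted p 0.0108) and Nfkb1 lower at 48 h (-0.36 ± 0.12, 0.0495), and 0 were called at 96 h. Beside these, 10.9% of all genes were called higher at 24 h and 5.77% lower at 48 h. The Nfkb1 call was lost on leaving out any of 19 single arrays, and that of Nfkb2 without irradiated replicate 4 at 24 h (adjusted p 0.0522). Cxcl1, Cxcl2 and Tnfaip2 were not detected. Of 15 p53 target genes, 14 were tested, and 13 were called higher at 24 h, 12 at 48 h and 4 at 96 h, with 0 lower and medians of 1.12, 1.21 and 0.43. The shares of all genes called higher were 10.9%, 6.83% and 1.53%. Plk2, a kinase, was higher by 2.26 ± 0.16 at 24 h (1.82e-09), Ddit4l by 1.94 ± 0.24 at 48 h (3.71e-06) and Zmat3 by 0.92 ± 0.15 at 96 h (0.000497). The Zmat3 call was lost under median scaling, with only the 96 h arrays and without the 5 arrays with the fewest detected probes (adjusted p up to 0.0854). Aen was not detected.

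**Figure D5:**
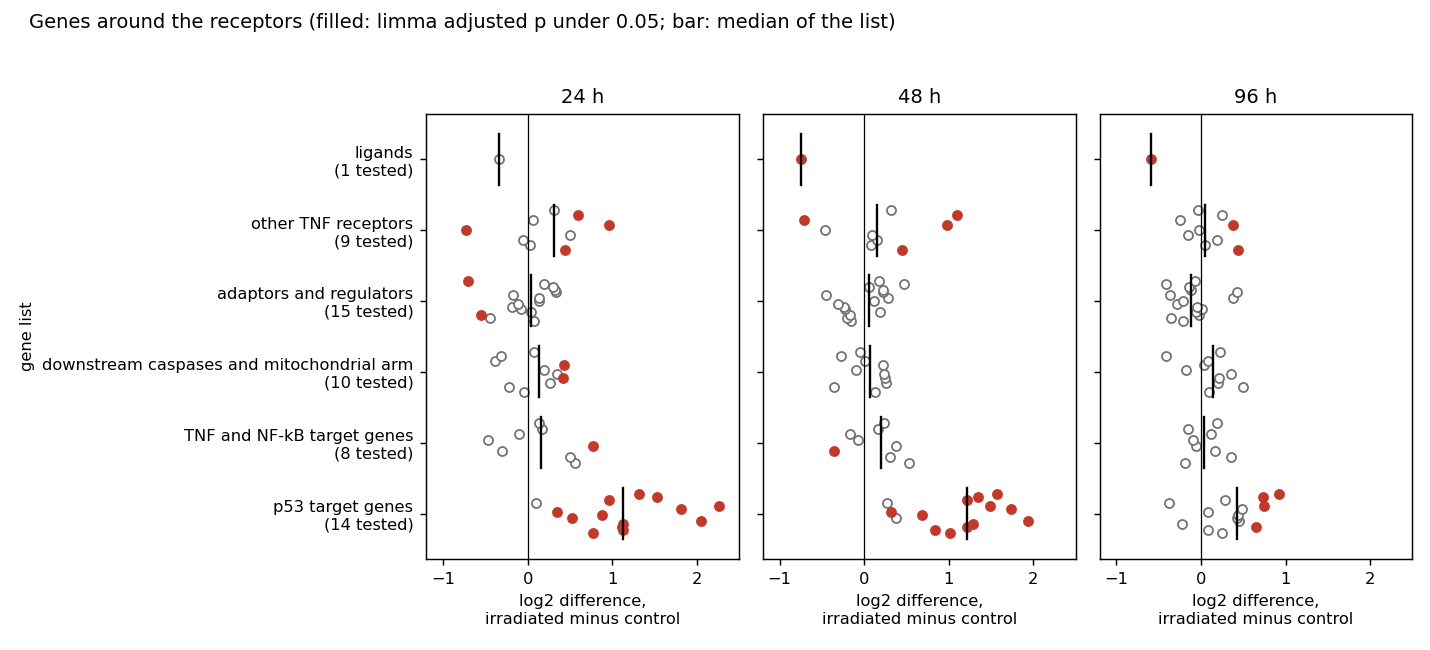
Log2 difference between irradiated and control organoids (horizontal axis) for the tested genes of 6 lists (vertical axis) at 24, 48 and 96 h, with a bar at each list's median and filled points for genes called. Of the p53 target genes 13, 12 and 4 were called higher, while of the adaptors and regulators 2 were called lower at 24 h and 0 were called later.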

How the data were processed

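RNA of 24 organoid samples was labelled with biotin and read on Illumina BeadChips, per the labels. The authors deposited mean bead signals, which per the file headers are intensity values on a linear scale, with a detection p-value per probe and array. The detection p-values fall in steps that 798 negative control beads would give. A second deposited table holds processed intensity values, used as an alternative. For the authors' software, the sources used here give no name.

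Background was removed by a normexp fit that takes its controls from those p-values (offset 16), followed by quantile normalization and log2, as limma 3.58.1's neqc does (R 4.3.3). The filter asked for detection at p under 0.05 on 4 or more arrays and left 15056 of 25697 probes. The brightest of a symbol's probes stood for the gene, which left 10798 genes. The limma model had a mean for each group and used all 24 arrays together (residual df 18, prior df 4.21). P-values are two-sided and adjusted by Benjamini-Hochberg over the detected probes of each contrast. The fit was tested on simulated data. Promoters and figures were handled in Python 3.11.15 with pandas 2.3.3 and matplotlib 3.10.9. Where 0 arrays of a group detected a probe, its level there is only bounded by the background, and no fold is given.

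All probes of the 6 genes are described. Of each other list, up to 3 called genes with the largest difference per time are named, with those not detected, and the 3 genes most like each member. A few further genes of these lists are named as examples, chosen after their values were seen. The members and lists were chosen with earlier results of these data known. The precision is limited by the number of arrays. Alternatives covered background, scaling, filter, probe choice, arrays fitted, a detection term, a replicate block and each array left out. A fit without 5 arrays and one with a histone term were chosen after seeing the data. Some genes of these lists are not reported here.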

Additional observations from a re-analysis of the deposited data

Results flagged for a closer look

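Of the 108 combinations of a member probe and a group of 4 arrays, 8 held an array that stood apart from the other 3 past Dixon's 95% limit, and chance gives about 1 in 20 groups. In irradiated organoids at 24 h, replicate 3 was the low array for 4 probes. It read 6.23 for Fas ILMN_2902979 (others 6.71 to 6.78), 4.95 for Fas ILMN_2479290 (5.95 to 6.12), 6.28 for Tnfrsf10b ILMN_2455181 (6.81 to 6.87) and 5.29 for Tnfrsf10b ILMN_2454348 (6.20 to 6.32). This array detected the fewest probes, 9738. Without it the Tnfrsf10b ILMN_2454348 difference at 24 h was 0.74 (limma adjusted p 0.0463). In irradiated organoids at 96 h, replicate 4 read 5.10 for Fas ILMN_2902979 (others 5.73 to 5.84) and 8.04 for Tnfrsf1a ILMN_2469329 (7.17 to 7.31). Among controls, replicate 1 at 96 h read 6.42 for the same Tnfrsf1a probe (7.67 to 7.79), and replicate 3 at 48 h read 9.14 for Casp8 ILMN_3097868 (8.59 to 8.62).

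The irradiation effect differed between times, by the limma test of the difference itself, for Eda2r between 96 and 48 h (-1.17) and between 96 and 24 h (-1.11). It did so for Tnfrsf10b between 96 and 24 h on ILMN_2945095 (-0.71) and ILMN_1230700 (-0.75). The first call was lost under 6 of 13 alternatives and on leaving out any of 16 arrays, the second under 3 of 12 and any of 7, and ILMN_2460875 (-0.03) and ILMN_2455181 (-0.01) were not called. The chips differ between the times compared, so time and chip cannot be told apart in the levels, though each effect is measured within 1 chip.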

How the results depend on the processing

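Of the counts of called member genes, those for 48 against 24 h (0) and 96 against 48 h (1) were equal under all 13 alternatives. At 24 h the count, 3, was 4 under median scaling, with 2 higher and 2 lower, and at 48 h the count, 3, was 2 under median scaling and with only the arrays compared. The count at 96 h, 1, was 0 under median scaling and with only the arrays compared, and 2 under cyclic loess, with detected probes as a term, without the 5 arrays with the fewest detected probes, and with the histone term. The 96-against-24 h count, 2, was 0 under median scaling and without those 5 arrays, and 1 with no filter, with only the arrays compared, with detected probes as a term and with the replicate block. Leaving out each array gave 3 to 3 at 24 h, 2 to 3 at 48 h, 0 to 2 at 96 h, 0 to 0 for 48 against 24 h, 1 to 1 for 96 against 48 h and 1 to 2 for 96 against 24 h. Same-numbered irradiated and control samples deviated together at -0.419 to 0.457, over 0.1 in 7 of 12 pairs. This does not settle whether the numbers pair samples, and the main fit did not pair them. The replicate block moved no count of member genes but the 96-against-24 h one. Casp6 and Cycs at 24 h turned to -0.18 and -0.1 under median scaling, both above the -0.44 median of all detected probes there. There, 7.58%, 33.4% and 11.3% of the probes called at 24, 48 and 96 h were higher, against 43.3%, 55.4% and 34% as reported, and cyclic loess gave 66.5% at 24 h. At 24 h, 7324 probes were called under median scaling, 2210 with detected probes as a term and 1905 without the 5 arrays, against 3333. At 96 h, 168 were called with only those arrays, 267 without the 5 arrays and 1155 with the histone term, against 633. Over the alternatives, p53 targets called higher numbered 8 to 13, 9 to 13 and 0 to 6 at the 3 times, against 13, 12 and 4. At 24 h, other TNF receptors called higher numbered 0 to 4, against 3, adaptors called lower 0 to 5, against 2, and downstream genes called higher 0 to 4, against 2. The causes were not tested. Signals near background limit Fas and Tnfsf10.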
